A study of Mus musculus with 20 samples.

Results

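The genes that make, break down and carry urate were followed in the liver and kidney of mice given a chemical reprogramming cocktail. The 7 genes were chosen by symbol for these roles and matched to Ensembl identifiers in a table of 57010 genes, of which 34032 had a count in any library. They are Xdh for production, Uox for breakdown, and Slc2a9, Slc22a12, Abcg2, Slc17a1 and Slc17a3 for transport. All 7 were found.

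Bulk mRNA-seq libraries, 10 from liver and 10 from kidney, came from male UM-HET3 mice, a genetically heterogeneous stock, aged 12 months. In the 7c group an osmotic pump under the skin delivered 7c for 28 days, which is CHIR99021, DZNep, forskolin, repsox, tranylcypromine and TTNPB at 0.1 mg/kg/day each together with valproate at 1 mg/kg/day. The vehicle mice carried pumps with the solvent alone, 50% DMSO and 50% PEG300, which the 7c mice received too. There were 6 7c and 4 vehicle libraries per tissue, whose numbers no source used here ties to a mouse across tissues, and total counts ranged from 27855849 to 64872451 per library, both extremes being kidneys.

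Urate is a product of purine breakdown. Xanthine dehydrogenase makes it from hypoxanthine and xanthine, and in mice uricase, a peroxisomal enzyme of hepatocytes, oxidises it on the way to allantoin, a step that humans have lost. Urate that reaches the kidney is filtered and then moved in both directions across the proximal tubule, so its level in blood depends on liver enzymes and on tubular carriers together.

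The tissue labels were checked against defining transcripts. The summed level of 6 hepatocyte genes (Alb, Ttr, Apoa1, Ahsg, Fgb and Cps1) was 93190 to 131500 CPM (counts relative to each library's total, scaled by TMM over all 20 libraries) in livers and 63.6 to 265 CPM in kidneys. The 6 proximal tubule genes summed to 27300 to 56040 CPM in kidneys and to 0.635 to 2.00 CPM in livers, so no library went against its tissue label. The liver of 7c replicate 6 also held 549 CPM of the skeletal muscle genes Acta1, Ckm and Myh4, against at most 0.0907 CPM in any other 7c liver and 0 in the vehicle livers. In a piece of whole tissue, fewer cells of a type and less RNA per cell cannot be told apart.

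The bases just before the start sites of 4 members are shown because these genes span the tissue pattern described next. Uox and Slc22a12 are its liver and kidney ends, and Abcg2 and Slc17a1 are the members in whose windows a searched motif was found. Each sequence is the 250 bases before the start of the GENCODE vM39 canonical transcript, read from GRCm39 in the direction of transcription, at chr3:146302582-146302831 (plus strand) for Uox, chr19:6593063-6593312 (minus strand) for Slc22a12, chr6:58617251-58617500 (plus strand) for Abcg2 and chr13:24053998-24054247 (plus strand) for Slc17a1. Capitals mark a searched motif.
Uox upstream: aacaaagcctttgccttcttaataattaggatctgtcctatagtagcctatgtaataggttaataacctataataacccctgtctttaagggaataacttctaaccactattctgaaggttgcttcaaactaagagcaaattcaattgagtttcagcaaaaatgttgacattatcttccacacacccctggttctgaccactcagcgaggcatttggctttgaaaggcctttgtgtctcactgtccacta
Slc22a12 upstream: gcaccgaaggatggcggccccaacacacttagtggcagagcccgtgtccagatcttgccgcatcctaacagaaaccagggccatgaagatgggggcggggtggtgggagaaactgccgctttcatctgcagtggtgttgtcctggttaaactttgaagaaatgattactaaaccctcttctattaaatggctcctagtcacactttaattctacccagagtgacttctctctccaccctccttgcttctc
Abcg2 upstream: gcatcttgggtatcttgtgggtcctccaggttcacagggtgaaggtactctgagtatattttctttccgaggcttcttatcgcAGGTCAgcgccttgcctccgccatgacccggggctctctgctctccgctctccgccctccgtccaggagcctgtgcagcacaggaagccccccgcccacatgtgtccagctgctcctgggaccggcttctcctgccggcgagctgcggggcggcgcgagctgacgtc
Slc17a1 upstream: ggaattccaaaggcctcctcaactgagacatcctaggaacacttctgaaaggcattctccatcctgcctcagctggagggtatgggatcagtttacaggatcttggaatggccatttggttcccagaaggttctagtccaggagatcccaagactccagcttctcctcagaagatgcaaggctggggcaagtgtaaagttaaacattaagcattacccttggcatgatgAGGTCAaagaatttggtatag
Motifs were searched on both strands and could overlap. The nuclear receptor motif core AGGTCA was found in Abcg2, 167 bases before the start, and in Slc17a1, 21 bases before it, and is in 13.1% of the 21651 promoter windows of protein-coding genes. The HNF4 motif CAAAGTCCA (0.374% of windows), the TATA box TATAAA (11.9%) and the cAMP response element TGACGTCA (1.69%) were in none of the windows of the 7 members. Only the canonical start site of each gene was searched, and matches crossing the end of a window were not. The Abcg2 window ends in tgacgtc, the first letters of TGACGTCA. A match is a stretch of letters, and no binding was measured here.

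How the members divide between liver and kidney was examined first in the vehicle mice. All 7 differed between the tissues at an adjusted p under 0.05 by edgeR's quasi-likelihood test, 3 of them higher in liver (Uox, Xdh and Slc2a9) and 4 higher in kidney (Slc22a12, Abcg2, Slc17a1 and Slc17a3). Such differences were common, since 53.4% of the 17245 genes tested passed, 25.7% higher in liver and 27.7% higher in kidney. Both enzymes were among those higher in liver, and 4 of the 5 carriers were among those higher in kidney.

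Xdh (ENSMUSG00000024066, chr17:74190203-74257399 of GRCm39, minus strand) encodes the enzyme that forms urate. Its level in the vehicle livers was 186, 174, 189 and 127 CPM, and in the vehicle kidneys 15.2, 7.65, 20.3 and 14.5 CPM. Every liver was above every kidney, and the liver level was 11.7-fold higher (log2 difference 3.55, standard error 0.280, adjusted p = 1.14e-06 by edgeR's quasi-likelihood test).

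Uox (ENSMUSG00000028186, chr3:146276181-146338060, plus strand) encodes uricase. Its level was 2737, 2277, 3333 and 3148 CPM in the vehicle livers and 1.16, 0.806, 0.467 and 0.557 CPM in the vehicle kidneys. The kidney values rest on 56, 36, 22 and 20 counts. The log2 difference was 11.89 (with a standard error of 0.377 and adjusted p = 1.58e-09 by edgeR), the largest of the 3 members higher in liver.

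Slc2a9 (ENSMUSG00000005107, chr5:38506616-38660486, minus strand) encodes GLUT9, which passes urate across the sinusoidal membrane of hepatocytes and the basolateral side of tubule cells. The vehicle livers had 71.1, 84.6, 60.4 and 53.0 CPM and the vehicle kidneys 12.2, 8.28, 14.3 and 16.9 CPM. It was the only urate carrier of the 5 with a higher level in liver, with a log2 difference of 2.38 (its standard error was 0.232, adjusted p = 6.22e-06 by edgeR).

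Slc22a12 (ENSMUSG00000061742, chr19:6585875-6593062, minus strand) encodes URAT1, the apical carrier through which the proximal tubule takes urate back from the filtrate. It had 803, 1610, 715 and 1050 CPM in the vehicle kidneys and no count in any of the 10 livers. With 3 counts per library as the floor, which would be fewer fragments if both reads of a pair were counted, its level was at least 5845-fold higher in vehicle kidney and at least 6719-fold higher in 7c kidney (adjusted p = 1.22e-07 for vehicle mice by edgeR). Its exons share 682 bases with Nrxn2 on the opposite strand, and 29.1% of the 50-base stretches of its transcript also lie in Nrxn2 transcripts. Nrxn2 reached at most 1936 counts in any library, against up to 106446 for Slc22a12. None of the other 6 canonical transcripts shared a 50-base stretch with another gene. Over all annotated exons, Uox, Xdh and Abcg2 share 96, 103 and 53 bases with long non-coding genes on the opposite strand. That of Abcg2 reached at most 3 counts in any library, and the others were not among the genes counted.

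Abcg2 (ENSMUSG00000029802, chr6:58561505-58672661, plus strand) encodes an ATP-driven exporter that secretes urate in kidney and gut. It had 381.5, 316, 423 and 361 CPM in the vehicle kidneys and 111.5, 103, 114 and 97.1 CPM in the vehicle livers. The tissues did not overlap, and the difference of -1.80 on the log2 scale (liver minus kidney, standard error 0.137, adjusted p = 8.45e-07 by edgeR) was the smallest in size of the 7.

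Slc17a1 (ENSMUSG00000021335, chr13:24051733-24079713, plus strand) and Slc17a3 (ENSMUSG00000036083, chr13:24023385-24045056, plus strand) encode NPT1 and NPT4, apical carriers that let urate and other organic anions leave tubule cells. Slc17a1 had 459, 397, 408.5 and 385 CPM in the vehicle kidneys and 21.4, 21.4, 17.75 and 14.8 CPM in the vehicle livers. Slc17a3 had 647, 628, 537 and 585 CPM in the same kidneys and 104, 104, 107 and 91.9 CPM in the livers. Both were higher in every kidney than in any liver. The log2 differences of liver minus kidney were -4.45 (standard error 0.171) for Slc17a1 and -2.56 (standard error 0.1335) for Slc17a3, with adjusted p of 4.74e-09 and 4.00e-08 by edgeR.

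**Figure D1:**
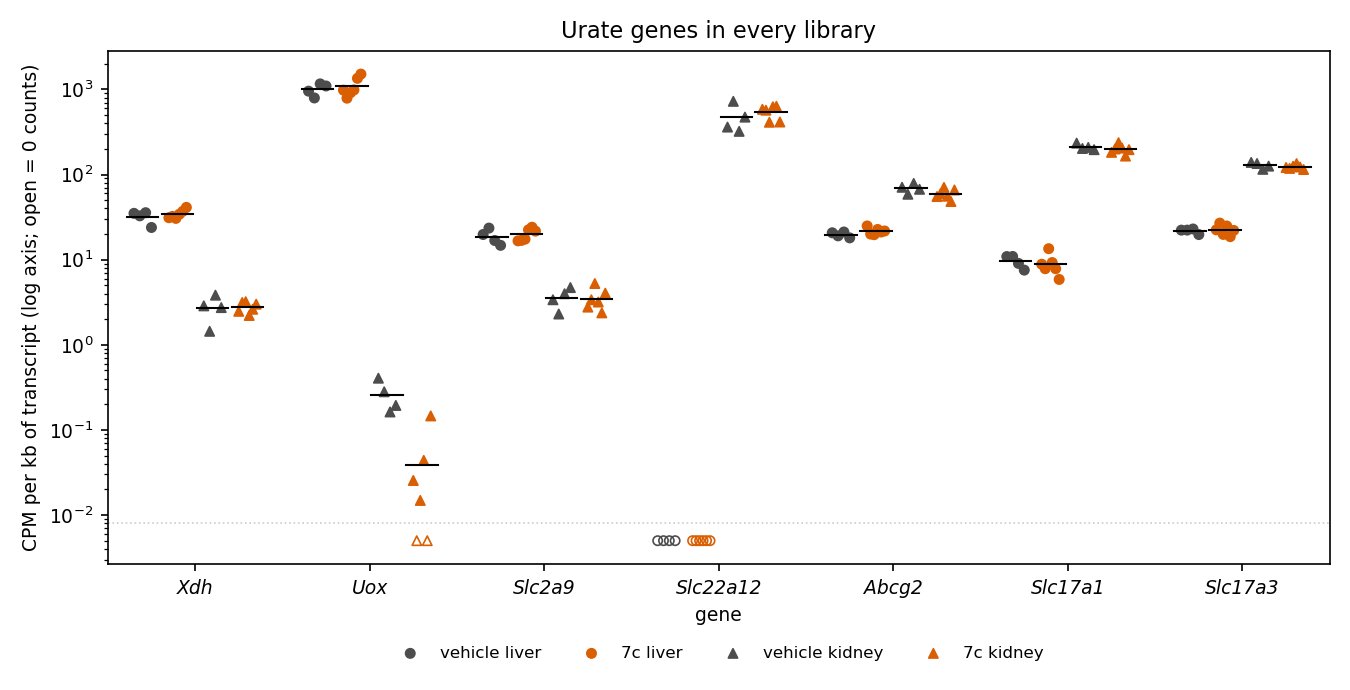
Level of each member in all 20 libraries, as CPM per kb of canonical transcript on a log axis, with circles for liver, triangles for kidney, grey for vehicle, orange for 7c and a bar for each group mean, and open symbols at the bottom for libraries with 0 counts. Uox and Slc22a12 lie at opposite tissue extremes, and in every member the vehicle and 7c points of a tissue overlap except for Uox in kidney.

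Levels of different members were compared only per kb of transcript. In vehicle liver the order was Uox (1000 CPM per kb), Xdh (31.8), Slc17a3 (21.8), Abcg2 (19.7), Slc2a9 (18.7), Slc17a1 (9.59) and Slc22a12 (no count). The ranges of Slc17a3, Abcg2 and Slc2a9 overlapped with their neighbours in that order, and those of Uox, Xdh and Slc17a1 did not. In vehicle kidney the order was Slc22a12 (469 CPM per kb), Slc17a1 (210), Slc17a3 (128), Abcg2 (68.7), Slc2a9 (3.59), Xdh (2.72) and Uox (0.260), and only Slc2a9 and Xdh overlapped. With the length of all annotated exons in place of the canonical transcript, Slc17a3 (14.2 CPM per kb) came before Xdh (13.1) and Slc2a9 (13.1) before Abcg2 (11.2) in vehicle liver.

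The 7c mice gave a separate set of libraries for the same tissue contrast. Again all 7 members passed by edgeR, the same 3 higher in liver and the same 4 higher in kidney, with 65.7% of 17117 genes passing, 30.9% higher in liver and 34.8% higher in kidney. With the replicate number as a block, which takes equal numbers as 1 mouse, 7 of 7 also passed in both groups. The log2 differences of liver minus kidney in 7c and in vehicle mice were 3.60 and 3.55 for Xdh, 2.46 and 2.38 for Slc2a9, -1.49 and -1.80 for Abcg2, -4.51 and -4.45 for Slc17a1 and -2.48 and -2.56 for Slc17a3. For Uox they were 14.64 and 11.89.

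Slc17a1 and Slc17a3 lie in a row with Slc17a2 and Slc17a4, carriers of the same family, within 108.1 kb of chromosome 13. The order along the plus strand is Slc17a2, Slc17a3, Slc17a1 and Slc17a4, with Slc17a4 on the minus strand and 0.2 kb between the facing ends of Slc17a1 and Slc17a4. The 2 inner genes were the kidney-high ones and the 2 outer genes were higher in liver. Slc17a2 had 247 CPM ± 17.7 (SD, n = 4) in vehicle liver and 0.169 CPM ± 0.102 in vehicle kidney, and Slc17a4 had 65.3 CPM ± 13.8 and 8.89 CPM ± 2.35. Their log2 differences of liver minus kidney were 10.47 (standard error 0.309, adjusted p = 1.12e-09) and 2.88 (standard error 0.234, adjusted p = 1.45e-06) by edgeR.

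**Figure D2:**
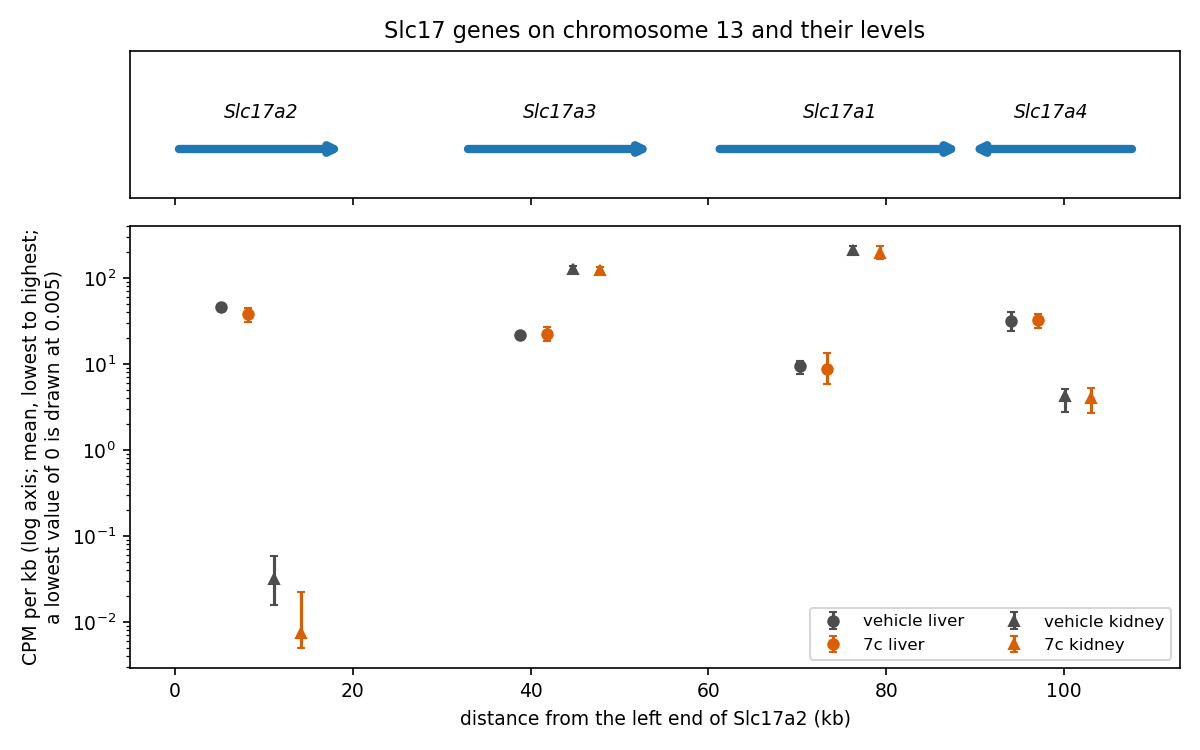
The Slc17 genes drawn to scale along chromosome 13 with arrows in the direction of transcription (top), and their levels as CPM per kb of canonical transcript on a log axis (bottom), where symbols are group means and bars run from the lowest to the highest library. Slc17a3 and Slc17a1 in the middle were higher in kidney (128 and 210 CPM per kb in vehicle mice) than in liver (21.8 and 9.59), and Slc17a2 and Slc17a4 were higher in liver (45.6 and 31.3).

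The genes around the members were read from lists of the purine and urate pathway. The 2 tested genes of the steps after uricase were both higher in vehicle liver, as 25.7% of all genes tested were. Urah, which hydrolyses the product of uricase, had 122 CPM ± 3.23 (SD, n = 4) in vehicle liver and 3.65 CPM ± 0.760 in vehicle kidney, and Urad, which decarboxylates the next intermediate, had 47.5 CPM ± 7.38 and 0.0139 CPM ± 0.0278. Urad had no count in any 7c kidney, which with a floor of 3 counts per library made its level at least 528-fold higher in 7c liver. Allc, which encodes allantoicase, a later enzyme of this route, had no count in any library and was not tested.

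Xdh needs a molybdenum cofactor, and of the 8 tested genes for molybdenum enzymes and this cofactor 6 were higher in vehicle liver and none higher in vehicle kidney, against 25.7% and 27.7% of all genes tested, with a median log2 difference of 1.85 against -0.06. Aox3 and Aox1, aldehyde oxidases related to Xdh, differed by 10.85 and 8.68 on the log2 scale, with 947 CPM ± 165 and 247 CPM ± 98.5 (SD, n = 4) in vehicle liver. Gphn (log2 difference 0.43, adjusted p = 0.0611) and Mocs3 (log2 difference -0.01, adjusted p = 0.974) did not pass edgeR's test.

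The genes before and around Xdh divided both ways. Of 12 tested genes that break purines down to xanthine, 2 were higher in vehicle liver and 4 higher in vehicle kidney, with a median log2 difference of -0.01 against -0.06 over all genes tested. Gda, which turns guanine into xanthine, was higher in liver by 3.33 and Ampd2, an AMP deaminase, by 0.63 on the log2 scale. Ampd3, another AMP deaminase, was lower in liver by a log2 difference of -2.76 and the nucleotidase Nt5e by -2.25. All 3 salvage genes passed, with adenosine kinase Adk higher in liver by 2.89, Hprt1 by 0.45 and Aprt lower in liver at -1.05. Of 13 purine synthesis genes 4 were higher in liver and 3 higher in kidney, shares near the 25.7% and 27.7% of all genes. They ran from 2.77 for Adss1 and 0.87 for Prps1 to -0.82 for Prps2 and -1.38 for Impdh1.

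Of the 13 other urate and anion carriers and scaffolds, all tested, 10 were higher in vehicle kidney and 3 higher in vehicle liver, against 27.7% and 25.7% of all genes tested, with a median log2 difference of -3.43 against -0.06. Slc22a6 and Slc22a8, the basolateral anion carriers OAT1 and OAT3, had 1339 CPM ± 237 and 570 CPM ± 195 (SD, n = 4) in vehicle kidney. Slc22a6 had no count in vehicle liver and was at least 8981-fold higher in kidney, and Slc22a8 had 0.0580 CPM ± 0.0772 in vehicle liver. Slc22a13 had 56.9 CPM ± 6.00 in vehicle kidney, at least 410-fold above the liver floor, and the lactate carrier Slc5a12 134 CPM ± 49.9, at least 578-fold above it. Pdzk1, a scaffold that binds apical carriers, had 382 CPM ± 30.5 in kidney and 44.2 CPM ± 4.38 in liver (log2 difference -3.11, adjusted p = 1.26e-08 by edgeR).

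Hnf4a and Hnf4g encode transcription factors of epithelial tissues such as liver and kidney. Hnf4a had 746 CPM ± 130 in vehicle liver and 803 CPM ± 35.8 in vehicle kidney (SD, n = 4), and it did not pass edgeR's test (log2 difference -0.11, 95% interval -0.45 to 0.24). Hnf4g was higher in kidney, with a log2 difference of -7.13 and an adjusted p of 9.90e-06 by edgeR.

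**Figure D3:**
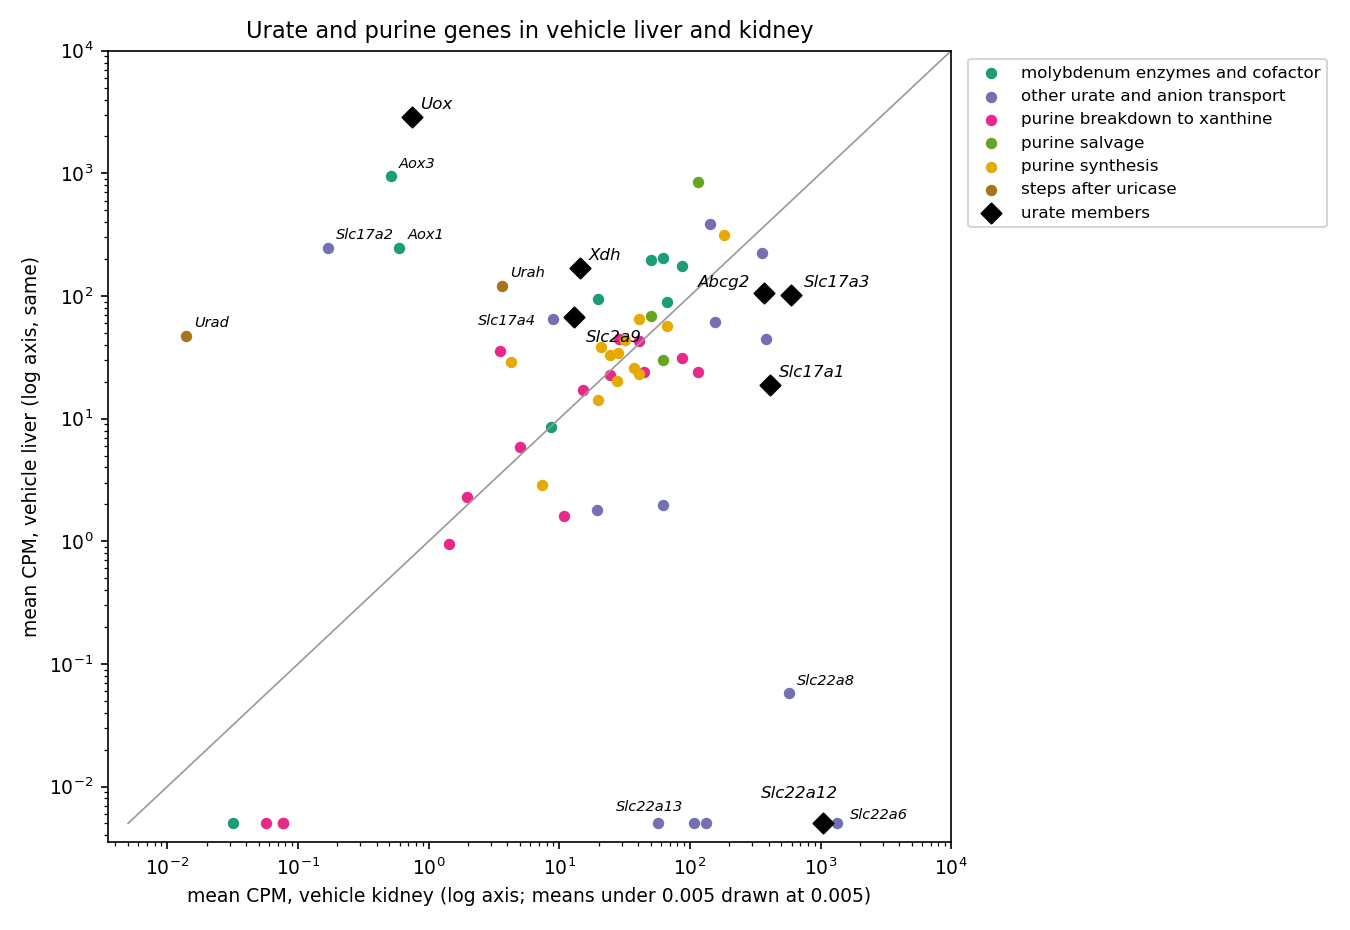
Mean CPM of each pathway gene in vehicle kidney (x axis) and vehicle liver (y axis), both on log axes, with black diamonds for the members, coloured points for the other lists and a line of equal levels. Uox, Urad and the aldehyde oxidases Aox1 and Aox3 lie far above the line and Slc22a12, Slc22a6 and Slc22a8 far below it, while most purine synthesis genes lie near it.

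Whether 7c changed these genes was then tested in each tissue. In liver, none of the 6 members tested passed an adjusted p under 0.05 by edgeR's quasi-likelihood test, where 0.00666% of 15012 genes did. At an unadjusted p under 0.05 the count was also 0 of 6, against 3.76% of all genes, and in none of the 6 did the 7c and vehicle livers fail to overlap, against 0.666% of all genes. DESeq2, limma-voom, edgeR's likelihood ratio test and a fit of all 20 libraries together each called 0 of them, against 0.04%, 0.00666%, 0.0466% and 0.0266% of the genes each tested. Slc22a12 was not tested in liver because it had no counts.

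Uox in liver had a lowest, median and highest level of 2264, 2819 and 4344 CPM in the 6 7c livers, against the 2277 to 3333 CPM of the vehicle livers. The ranges overlapped, although the highest values were those of 7c replicates 5 and 6 (3870 and 4344 CPM), the latter being the liver with muscle transcripts. The log2 difference of 7c minus vehicle was 0.09 (standard error 0.180, 95% interval -0.30 to 0.48), and -0.02 without 7c replicate 6.

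Xdh had 162, 176 and 219 CPM as the lowest, median and highest of the 7c livers, and its log2 difference was 0.09 (95% interval -0.18 to 0.35). For Slc2a9 the same 3 values were 59.9, 70.2 and 86.6 CPM and the difference 0.06 (interval -0.24 to 0.37). Neither interval leaves room for a change in liver of more than 1 on the log2 scale, in either direction.

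Abcg2 in the 7c livers ran from 106 to 134 CPM with a median of 115, and its difference was 0.11 (95% interval -0.08 to 0.30). Slc17a1 ran from 11.5 to 26.4 CPM with a median of 16.4 (difference -0.13, interval -0.56 to 0.30). Slc17a3 ran from 86.9 to 125 CPM with a median of 104 (difference 0.02, interval -0.21 to 0.25). All 6 adjusted p were 0.9996 by edgeR, and the median of the 6 log2 differences was 0.08 against 0.0017 over all genes tested.

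In kidney, 0 of the 7 members passed the adjusted threshold by edgeR, as did 0% of the 17749 genes tested. At an unadjusted p under 0.05 there was 1 of 7, Uox, against 2.61% of all genes, and Uox was also the 1 member whose groups did not overlap, against 0.716% of all genes. DESeq2, limma-voom and the likelihood ratio test called 0 of the 7, against 0.101%, 0.0113% and 0.0789% of all genes, and a fit of all 20 libraries together called Uox and 0.101% of all genes.

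Uox counts were 6, 0, 2, 6, 0 and 22 in the 7c kidneys and 56, 36, 22 and 20 in the vehicle kidneys. In CPM these were 0.0732, 0, 0.0427, 0.126, 0 and 0.4195 against 1.16, 0.806, 0.467 and 0.557. All 8 nonzero counts were even, and if both reads of a pair were counted, which was not tested, they rest on fewer fragments. Each 7c kidney was below each vehicle kidney, although 7c replicate 6 came close to vehicle replicate 3. The log2 difference was -2.71 (standard error 0.816, 95% interval -4.47 to -0.94, adjusted p = 0.997 by edgeR's quasi-likelihood test), and the adjusted p was 0.0361 in the fit of all 20 libraries. Uox reached 10 counts in just enough kidneys to be tested, the 4 vehicle kidneys and 7c replicate 6, so it was not tested in fits that left out any one of these.

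Transcripts of hepatocytes in the kidneys are given beside this result. The 6 hepatocyte markers together summed to 164 to 240 CPM in the vehicle kidneys and 63.6 to 265 CPM in the 7c kidneys, so that the 7c range covered the vehicle range. Most of that sum was Ttr, at 53.6 to 255 CPM, which had a log2 difference of -0.08 and a kidney level of 2.27% (vehicle) and 1.83% (7c) of its liver level. All 6 markers had a negative difference of 7c minus vehicle, 4 of them at an unadjusted p under 0.05 (Alb -1.08, Apoa1 -1.73, Ahsg -2.20 and Cps1 -2.99, adjusted p = 0.997 each by edgeR), and Fgb was at -0.94. No hepatocyte marker was at 0 in a vehicle kidney, and Cps1 was at 0 counts in 7c kidneys 3 and 5.

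Leaving Ttr out, a choice made after the values were seen, the other 5 genes summed to 23.1 to 45.1 CPM in the vehicle kidneys and 9.23 to 28.6 CPM in the 7c kidneys, with the 2 highest 7c values in replicates 6 and 4. Their kidney levels were 0.0232% to 0.0415% of their liver levels in vehicle mice and 0.00283% to 0.0163% in 7c mice, and those of Uox were 0.0260% and 0.00353%. Over the 10 kidneys Uox had a Pearson correlation of 0.130 and a Spearman correlation of 0.043 with the sum of all 6 markers, and of 0.936 and 0.851 with the sum of the 5, so the relation rests on leaving Ttr out. These are descriptions, since the libraries share tissue and scaling. Groups were not centred here, so the difference between 7c and vehicle kidneys is part of each correlation. Alb was most of the sum of 5, with mean levels of 27.5 CPM in vehicle kidneys and 13.1 CPM in 7c kidneys. Xdh (8.54% of its liver level in vehicle kidney) and Slc2a9 (19.2%) had larger shares than Uox. Adipocyte transcripts differed the other way, with 6 markers summing to 8.64 to 48.8 CPM in the 7c kidneys and 0.492 to 11.3 CPM in the vehicle kidneys, all 6 at an unadjusted p under 0.05 and none at an adjusted one by edgeR. The part of either set of transcripts in the Uox difference was not tested.

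**Figure D4:**
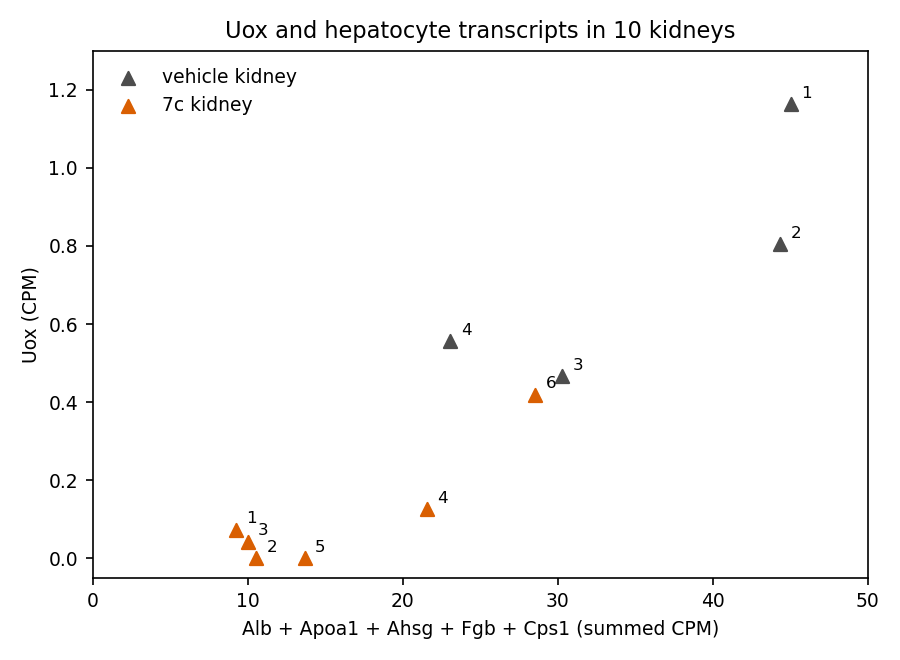
Uox (y axis, CPM) against the summed CPM of 5 of the 6 hepatocyte markers, Alb, Apoa1, Ahsg, Fgb and Cps1 without Ttr (x axis), in the 10 kidneys, grey for vehicle, orange for 7c, numbered by replicate. Kidneys high in this sum were high in Uox, from 0 to 1.16 CPM, with a correlation of 0.936 that was 0.130 with Ttr included. Both correlations are over all 10 kidneys without centring the groups.

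The other 6 members overlapped between 7c and vehicle kidneys. Slc22a12 had 1298, 1267, 914.5, 1389, 1409 and 920.5 CPM in the 7c kidneys against 715 to 1610 CPM in the vehicle kidneys. Its log2 difference of 7c minus vehicle was 0.19 (95% interval -0.28 to 0.66). Within each group its lowest level was in the kidney with the least Kap, an androgen-responsive transcript of the proximal tubule, and its highest in the kidney with the most. Kap was 18820 CPM in vehicle replicate 3, 41670 CPM in vehicle replicate 2, 21310 CPM in 7c replicate 3 and 48510 CPM in 7c replicate 5. Kap was 68.9% to 86.6% of the proximal tubule sum, and the other 5 markers summed to 7507 to 8924 CPM, with vehicle replicate 2 the lowest vehicle kidney and vehicle replicate 3 the highest.

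Abcg2 ran from 260 to 380 CPM with a median of 310 in the 7c kidneys, against 316 to 423 CPM. Its difference of -0.23 (standard error 0.130, 95% interval -0.51 to 0.05, adjusted p = 0.997 by edgeR) was the largest in size after Uox. Slc17a1 ran from 323 to 465 CPM (difference -0.10, interval -0.35 to 0.15) and Slc17a3 from 535 to 627 CPM (difference -0.08, interval -0.29 to 0.13). The vehicle ranges were 385 to 459 CPM for Slc17a1 and 537 to 647 CPM for Slc17a3, which held 3 of the 6 7c values of Slc17a1 and 5 of the 6 of Slc17a3.

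Xdh in the 7c kidneys ran from 11.7 to 17.0 CPM around a median of 14.9 (difference 0.02, 95% interval -0.47 to 0.50) and Slc2a9 from 8.54 to 18.9 CPM around 11.8 (difference -0.05, interval -0.56 to 0.47). Vehicle replicate 2, the vehicle kidney with the most Kap, had the lowest vehicle level of Xdh (7.65 CPM), of Slc2a9 (8.28 CPM) and of Abcg2 (316 CPM). Without vehicle replicate 2 the Xdh difference was -0.19. The median of the 7 kidney differences was -0.08, against -0.01 over all genes tested.

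**Figure D5:**
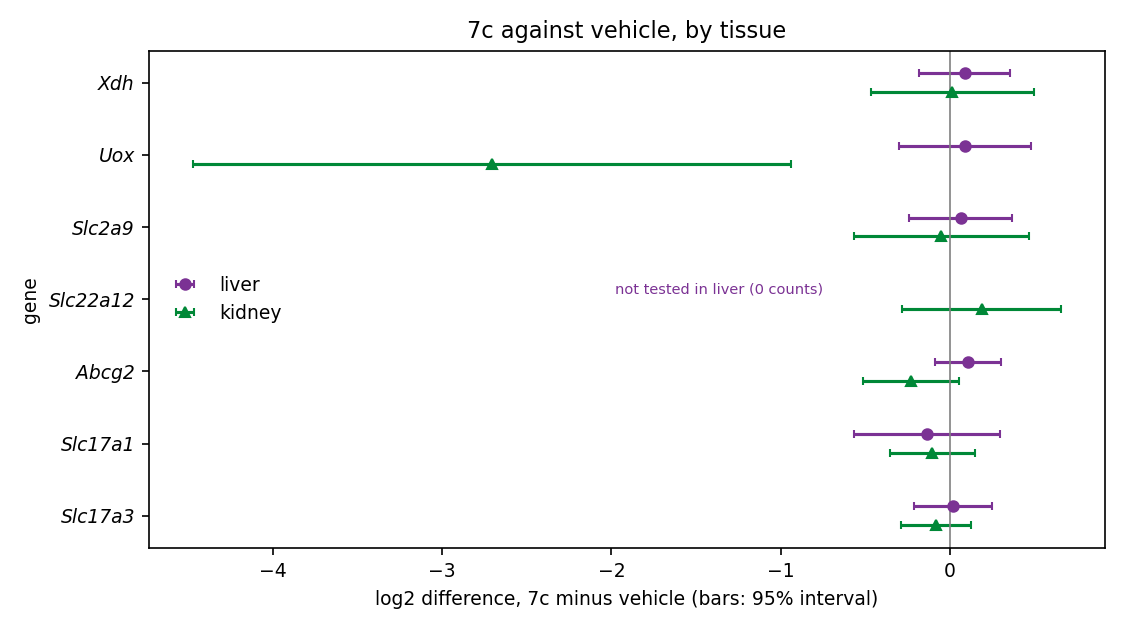
Log2 difference of 7c minus vehicle for each member in liver (circles) and kidney (triangles), with 95% intervals from edgeR's quasi-likelihood fit. All intervals include 0 except that of Uox in kidney, -4.47 to -0.94, whose adjusted p was 0.997.

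Whether the response differed between tissues was tested directly. None of the 6 members tested passed by edgeR's quasi-likelihood test of the interaction, where 0.00706% of 14163 genes did, and limma-voom also called 0, as it did for 0% of all genes. DESeq2 and the likelihood ratio test each called Uox. DESeq2 called 0.463% of the 3452 genes to which it gave an adjusted p, and the likelihood ratio test 0.155% of 14163 genes. At an unadjusted p under 0.05 there were 2, Uox and Abcg2, against 2.49% of all genes. For Uox the liver difference exceeded the kidney difference by a log2 value of 2.76 (with a standard error of 0.624 and adjusted p = 0.291), with an adjusted p of 0.0308 by DESeq2 and 0.00125 by the likelihood ratio test. For Abcg2 it did so by 0.33 (standard error 0.1565, adjusted p = 0.9999 by edgeR).

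The pathway lists gave no call for 7c either. By edgeR 0 genes of these lists passed in liver, in kidney or for the interaction. Adss1, the adenylosuccinate synthase known from muscle, was in kidney the 1 listed gene of 53 tested at an unadjusted p under 0.05, against 2.61% of all genes. Its level was 7.43 CPM ± 1.07 (SD, n = 6) in the 7c kidneys against 4.27 CPM ± 0.775 (n = 4) in vehicle kidneys, 5.54 to 8.36 CPM against 3.45 to 5.32 CPM, without overlap as in 0.716% of all genes. The 3 skeletal muscle markers summed to 0.0489 to 1.87 CPM in the 7c kidneys and 0 to 0.127 CPM in the vehicle kidneys, and their part in the Adss1 difference was not tested. The log2 difference was 0.79 (standard error 0.173, adjusted p = 0.997 by edgeR), and its adjusted p was 0.0163 by DESeq2 and 0.0361 in the fit of all 20 libraries, each of which called 0.101% of all genes. In liver 5 of 49 listed genes tested were at an unadjusted p under 0.05, against 3.76% of all genes, with log2 differences of 0.48 for Slc22a7, 0.37 for Adss1, 0.26 for Atic, -0.27 for Slc17a2 and -0.31 for Nt5c2 and an adjusted p of 0.9996 each by edgeR. The 7c liver with 549 CPM of muscle transcripts, replicate 6, had 47.3 CPM of Adss1, where the other 7c livers had 29.6 to 40.6 CPM and the vehicle livers 26.0 to 31.8 CPM, and the part of the muscle transcripts was not tested. Urah differed by 0.15 in liver and -0.02 in kidney, and Pdzk1 by 0.11 and -0.07.

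Within kidney the members did not vary as 1 block from mouse to mouse. After each group was centred, log2 CPM of Slc22a12 had a Pearson correlation of -0.888 with Abcg2, of -0.888 with Xdh and of -0.744 with Slc2a9 over the 10 kidneys. Abcg2 went with Slc2a9 (0.861), Xdh (0.739) and Slc17a1 (0.727), and Slc17a1 with Slc17a3 at 0.298 although the genes are neighbours. Such values were not rare, since 12.8% of all genes tested had a correlation with Abcg2 at least as strong as that of Slc22a12. For Slc2a9, Xdh and Slc17a1 with Abcg2 the shares were 17%, 34% and 35.5%. With Slc22a12, 8.19% of all genes tested had a correlation at least as strong as that of Xdh, and 30.3% as that of Slc2a9. In liver the largest in size were 0.669 for Slc2a9 with Xdh and -0.638 for Slc17a1 with Uox, over 10 livers.

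By the same measure the 3 genes most like each member, in the tissue where it was higher, were named. For Slc22a12 they were Gm15860, Triobp and Gm12854 (0.9915, 0.986 and 0.985), and for Abcg2 Ube2v2, Nipa2 and Gfpt1 (0.987, 0.987 and 0.983). For Slc17a1 they were Zmym1, Btbd10 and Rwdd4a (0.949, 0.948 and 0.941) and for Slc17a3 Gm7535, Wars2 and Gm8991 (0.956, 0.955 and 0.9315), each among 17748 genes in 10 kidneys. In liver, among 15011 genes, Uox went with Spag9, Lsmem2 and Pnldc1 (0.925, 0.925 and 0.923), Xdh with Grk6, Gm10658 and Pi4kb (0.9355, 0.933 and 0.919) and Slc2a9 with Abcc6, Eif4b and Pbld1 (0.975, 0.966 and 0.954). These libraries share depth and tissue makeup, and nothing about shared function or control follows from the values.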

How the data were processed

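Per the labels, polyA RNA was made into stranded TruSeq libraries. Per the submitters' processing notes and the study's methods, the authors mapped reads to GRCm39 with STAR 2.7.11b and counted them per gene with featureCounts 2.0.6. The deposited values are raw counts. The strand setting and annotation release of the counting are not given in the sources used here. Of values from 1 to 50, 73.8% to 82.4% per library were even. Both reads of a pair may have been counted, which was not tested and would leave fewer independent fragments than counts behind low values and floors. All 20 columns were mapped by name. Symbols and positions came from GENCODE vM39, which matched 56310 genes.

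A gene entered a test when 50% or more of the compared libraries had 10 or more counts, and was tested with edgeR 4.0.16 (TMM, quasi-likelihood F-test, R 4.3.3), each tissue alone with treatment as the only term, and the interaction on all libraries, with Benjamini-Hochberg adjustment over all genes tested and a threshold of 0.05. The fitting code was run on simulated counts, which checks the code and not whether a change in these members could be found. Levels are CPM with TMM factors over 20 libraries, correlations used log2(CPM + 0.5), and intervals are at 95%. Floors of 3 counts cover counting error only. Low counts limit Uox in kidney, where library totals were 27855849 to 64872451 counts. Motifs were matched exactly.

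The analysis was repeated with DESeq2 1.42.0, with the likelihood ratio test, with voom from limma 3.58.1, with RLE scaling, with other filters, with the replicate number as a block, in 1 fit of all libraries and without each replicate number in turn. The members and lists were chosen with earlier results of these data known. Named genes were all members, listed genes past a 7c threshold, the 2 largest and 2 smallest tissue differences per list, 9 fixed pathway genes, the Slc17 neighbours, at most 2 genes of each marker list, and the 3 genes most correlated with each member. Adss1 in the 7c comparison, the 6 hepatocyte markers, the 3 muscle markers and Kap were named beyond that after their values were seen. Some listed genes are not reported here.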

Additional observations from a re-analysis of the deposited data

Results flagged for a closer look

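In 26 groups of 4 or 6 libraries in which a member had counts, the highest or lowest library was compared with the others, a check that chance alone meets in about 1 in 20 groups, and 1 library stood apart. Uox in the kidney of 7c replicate 6 was 0.419 CPM (22 counts), while the other 5 7c kidneys had 0 to 0.126 CPM, so that the gap made up 0.7 of the group's range. The same kidney had the highest summed level of 5 hepatocyte genes among the 7c kidneys (28.6 CPM) but, with Ttr as the sixth, the second lowest (133 CPM). The part of these transcripts in the value was not tested.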

How the results depend on the processing

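The number of members called was 0 in both 7c comparisons and the interaction and 7 in both tissue contrasts, with 3 of 7 higher in liver by level. It moved in 3 cases, to 1 in kidney with all 20 libraries in 1 fit, and to 1 for the interaction with DESeq2 and to 1 with the likelihood ratio test, each time Uox. The cause was not tested. Over 13 alternatives Uox in kidney stayed between -3.66 and -2.47 on the log2 scale with adjusted p from 0.0361 to 1. None of these left out a vehicle kidney or 7c replicate 6, because Uox then missed the count filter. The range therefore does not show how the difference depends on those kidneys.

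Replicate numbers are not stated to name a mouse across tissues. Same-numbered livers and kidneys correlated at -0.00 to 0.29, best with their own number in 4 of 6 7c and 3 of 4 vehicle pairs, which is a hint from the data that numbers may be shared mice. Since not every pair was over 0.1 and no source ties the numbers, the tests reported have no block. The paper describes RNA from both the livers and the kidneys of the mice after treatment. The tissue tests and the interaction test therefore treat libraries of 1 mouse as independent. In the tissue contrasts the block leaves 7 of 7 members called. Within a tissue the replicate block joins 7c and vehicle libraries, which are different mice and correlated best with their own number in 0 of 4 (liver) and 1 of 4 (kidney) cases, so it says nothing about shared mice. There the number of members called stayed at 0, and uncalled differences turned sign for Uox in liver (-0.14), Slc2a9 in liver (-0.0427) and Slc2a9 in kidney (0.0064).

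Leaving out 1 replicate number of a treatment at a time turned the sign of further uncalled differences. Their ranges were -0.0245 to 0.1825 for Uox, -0.0205 to 0.1606 for Xdh, -0.0259 to 0.1798 for Slc2a9 and -0.0388 to 0.0687 for Slc17a3 in liver, -0.19 to 0.23 for Xdh and -0.21 to 0.11 for Slc2a9 in kidney, and -0.0824 to 0.2954 for Xdh, -0.1434 to 0.4004 for Slc2a9 and -0.1569 to 0.0524 for Slc17a1 for the interaction. No member's difference between tissues changed sign or lost its call under any alternative. Of the 55 pathway genes tested, 39 were called between vehicle tissues, where 53.4% of all genes tested passed. Without 1 replicate number or under other settings the number was 37 to 44. Between 7c tissues 43 of 55 were called, where 65.7% of all genes tested passed, and 43 to 45 under the alternatives. Of the member levels recomputed, 17 moved by more than the group SD.

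All genes called in liver numbered 1, and 0 to 7 under other settings, in kidney 0 and 0 to 18, and for the interaction 1 and 0 to 22. The correlation of Uox with the hepatocyte sum in kidney, 0.130, became 0.936 without Ttr, an alternative chosen after seeing the data. Low counts limit Uox in kidney, where libraries held 0 to 56 counts.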
